A study of Homo sapiens with 6 samples.

Results

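The endoplasmic reticulum (ER) chaperones and the heat shock proteins were followed in MDAMB468 cells with and without overexpression of IGFBP2. The set was given as 38 gene symbols, and a gene entered when its Ensembl identifier was listed in the expression table. Of the 38 genes, 37 were found among the 10487 genes of the table. These were 22 of the 23 ER genes, all 12 cytosolic genes and all 3 mitochondrial genes. ERN1, the gene of the ER stress sensor IRE1, was the member that was not listed, so it is not analysed here. MDA-MB-468 is an established human triple negative breast cancer line, and RNA was sequenced as short tags from the 3′ ends of transcripts. The 3 control libraries came from cells labelled wild type, and the 3 overexpression libraries from cells that carry a stably integrated activator (dCas9-VHP) together with a guide RNA aimed at IGFBP2. Neither group is described as treated with afatinib, the EGFR inhibitor of the study, and the comparison asks which transcripts differ when IGFBP2 is raised. By the study's methods the activator was delivered by lentivirus, its carriers were selected with blasticidin, and cells that carried the guide were sorted by its fluorescent marker. The methods do not say whether the control cells carried the activator, so overexpression of IGFBP2 and the presence of activator, guide, selection and sorting cannot be told apart.

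Chaperones hold unfolded proteins and help them to reach their folded form. In the ER lumen, HSPA5 (BiP) works with J-domain partners, and calnexin and calreticulin handle glycoproteins while disulfide isomerases form and shuffle disulfide bonds. When unfolded proteins build up there, the sensors IRE1, PERK and ATF6 raise the transcription of these genes, a programme called the unfolded protein response. In the cytosol the corresponding programme is the heat shock response, in which the factor HSF1 raises HSP70, HSP90, J-domain and small heat shock proteins. Carcinoma cells commonly express genes of both programmes at high levels.

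Levels are given as CPM, the tags of a gene scaled to a common library size, and differences as the log2 fold change of overexpression against control on the log2(CPM + 1) scale. The libraries held between 2497353 and 4579587 tags on listed genes. IGFBP2 itself was at 93.5, 87.3 and 136 CPM in the controls and at 566, 1176 and 498 CPM in the overexpression libraries (log2 fold change 2.73, standard error 0.33, limma adjusted p = 0.0148). All 11 epithelial and basal-like markers looked up for this line were listed, and 1 of them, KRT6B, had an unadjusted p under 0.05. The summed epithelial markers covered 3284 to 4851 CPM in the controls and 3773 to 4685 CPM in the overexpression libraries, and the summed basal-like markers 1402 to 1563 CPM and 1691 to 2111 CPM, and their part in the chaperone values was not tested. Of markers for hormone receptors, fibroblasts and leukocytes, ESR1, PGR, COL3A1, DCN, PTPRC and CD3E were not listed, and COL1A1, a collagen chain typical of fibroblasts, was at 9.36 to 27.5 CPM in the 6 libraries. The controls did not sit together for the chaperones. Among the controls, control 1 was low for ER members and high for most cytosolic members. Control 2 was high for ER members and low for cytosolic members. Values without these libraries are therefore given for the main counts and for members whose fold change moved most.

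A single chaperone gene, HSPB1, differed between the groups at an adjusted p under 0.05. It encodes the small heat shock protein HSP27, which holds unfolding proteins in a soluble state, and it rose 2.41-fold in mean CPM, but it was not called once any single library was left out (limma adjusted p = 0.0666 to 0.163). The cytosolic HSP70 genes HSPA1A and HSPA1B and the ER genes CALR, PDIA4 and MANF came next, each with an unadjusted p under 0.05 but not with an adjusted one. That made 6 of 37 members (16.2%) at an unadjusted p under 0.05 in the higher direction, where 6.88% of all genes did the same, and 0 of 37 in the lower direction, where 6.12% did. At the adjusted threshold 1 of 37 members was called, against 0.629% of all genes in either direction and 0.429% in the higher direction. In 9 of the 37 members every overexpression library lay above every control library (9.43% of all genes), and in 0 members every overexpression library lay below (8.61% of all genes). Since these are bulk samples, a larger share of cells that make a transcript and more of it in each cell cannot be told apart.

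**Figure D1:**
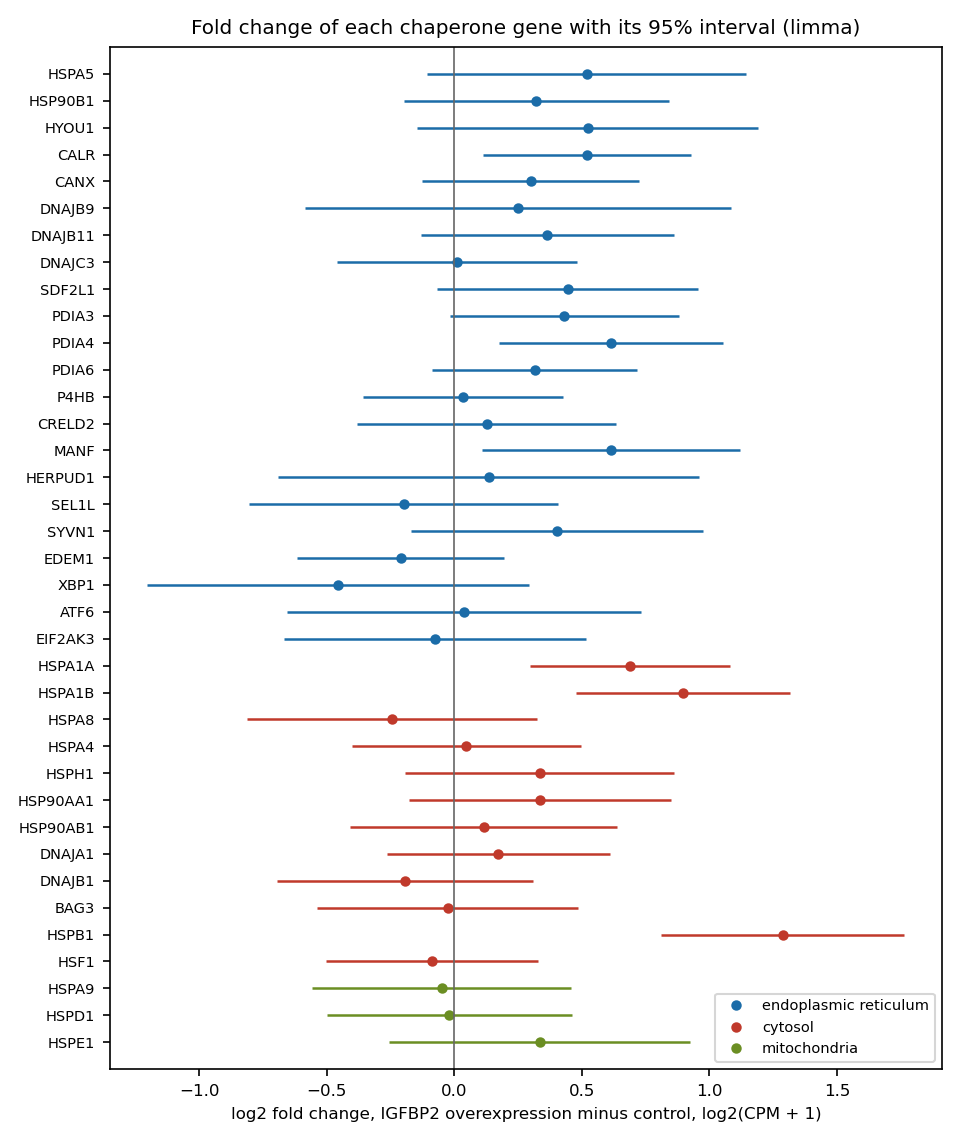
Log2 fold change (overexpression minus control, log2(CPM + 1) scale, x axis) of the 37 listed chaperone genes (y axis), with points for the limma estimate, lines for its 95% interval and colours for the compartment. The interval lies above 0 for CALR, PDIA4, MANF, HSPA1A, HSPA1B and HSPB1, and no interval lies wholly below 0.

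By compartment, many ER genes had small positive fold changes and a few cytosolic genes had larger ones. Among the 22 ER members 18 fold changes were positive and 4 negative, with a median of 0.31 and a range from -0.46 to 0.61 (13 positive and a median of 0.22 without control 1, and 20 and 0.43 without control 2), and 3 had an unadjusted p under 0.05 but 0 an adjusted one (limma). Among the 12 cytosolic members 8 were positive and 4 negative, with a median of 0.14 (0.26 without control 1 and 0.025 without control 2) and a range from -0.25 to 1.29. The 3 mitochondrial members had a median of -0.02. Over all 10487 genes the median was 0.0001 and 50% of the fold changes were positive.

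Promoter sequences were read for 35 of the 37 members from RefSeq (GRCh38.p14), over 250 bases before and 50 bases from the start of the transcript on. HSF1 and PDIA3 had no entry. Both strands were searched for 4 motifs known from these programmes: the ER stress response element ERSE (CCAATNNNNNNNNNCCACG), the shorter element ERSE-II (ATTGGNCCACG), and the heat shock element as 3 alternating units (GAANNTTCNNGAA) or as 2 (GAANNTTC). The 2-unit form lies inside the 3-unit form. ERSE was found in 7 of 21 ER members and in 0 of 11 cytosolic ones, and in 0.0916% of the 27305 genes with a promoter entry. ERSE-II was found in a further 3 ER members and in 0.0696% of all genes. The 3-unit heat shock element was found in 4 of 11 cytosolic members, in HSPD1 and in 0.608% of all genes, while the 2-unit form was found in 8 of 11 cytosolic members, in CANX and HSPD1 and in 8.21% of all genes. A match describes the letters of the window and is neither a measured binding site nor a cause. Only exact matches inside these windows were counted, so a gene without a match can still hold a variant form or an element elsewhere.

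The stretches around an ERSE or ERSE-II are shown for some of the ER genes with a match, in the direction of the gene and with the match in capitals. CALR (chr19:12938364-12938422, + strand) had a fold change of 0.52, HSPA5 (chr9:125241371-125241429, - strand) of 0.52, PDIA6 (chr2:10812833-10812891, - strand) of 0.31 and SDF2L1 (chr22:21642094-21642144, + strand) of 0.44, while XBP1 (chr22:28800583-28800641, - strand) had the lowest of all ER members, -0.46.
CALR: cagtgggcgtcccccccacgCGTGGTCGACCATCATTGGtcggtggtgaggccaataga
HSPA5: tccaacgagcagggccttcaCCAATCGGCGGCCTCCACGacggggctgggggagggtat
PDIA6: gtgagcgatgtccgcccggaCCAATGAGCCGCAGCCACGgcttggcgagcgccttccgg
XBP1: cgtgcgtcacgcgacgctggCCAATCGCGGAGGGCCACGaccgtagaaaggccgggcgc
SDF2L1: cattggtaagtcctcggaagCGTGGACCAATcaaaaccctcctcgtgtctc

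The match in CALR and that in SDF2L1 lie on the opposite strand and are therefore printed as the reverse complement of the motif. The 10 ER members with a match to ERSE or ERSE-II had a median fold change of 0.32, with 9 of 10 positive. The 11 ER members with a promoter entry but no match to either had a median of 0.04, with 8 of 11 positive. That 0.04 was the value of ATF6, which was 0.41 without control 2, and neither median was computed without that library. PDIA4 and MANF, the ER members with the largest fold changes, were among the 11 without an exact match to either element. Both groups contained members with fold changes above 0.5 and below 0, and the difference was not tested.

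For the cytosolic genes the stretches with a heat shock element are shown for the 3 genes whose groups did not overlap and for HSP90AA1 and HSPA8, which have the 3-unit form. HSPB1 is printed over the 250 bases before its start (chr7:76302423-76302672, + strand), and the others around the match: HSPA1A (chr6:31815417-31815464, + strand), HSPA1B (chr6:31827613-31827660, + strand), HSP90AA1 (chr14:102087100-102087152, - strand) and HSPA8 (chr11:123062159-123062211, - strand).
HSPB1: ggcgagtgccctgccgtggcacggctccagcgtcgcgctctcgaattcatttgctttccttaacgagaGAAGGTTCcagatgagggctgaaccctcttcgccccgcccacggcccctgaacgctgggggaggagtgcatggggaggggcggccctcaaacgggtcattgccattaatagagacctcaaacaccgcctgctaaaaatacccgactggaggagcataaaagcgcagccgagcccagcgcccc
HSPA1A: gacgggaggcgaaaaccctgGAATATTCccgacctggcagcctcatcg
HSPA1B: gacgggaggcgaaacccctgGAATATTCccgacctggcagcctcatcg
HSP90AA1: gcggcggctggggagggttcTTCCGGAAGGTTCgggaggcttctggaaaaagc
HSPA8: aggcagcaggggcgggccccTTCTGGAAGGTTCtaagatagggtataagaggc

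The windows of HSPA1A and HSPA1B are nearly the same. Over the 250 bases before each start, 235 of 251 aligned positions (93.6%) were identical. The 8 cytosolic members with a 2-unit element had a median fold change of 0.25 and a range from -0.25 to 1.29, and the 3 without it a median of 0.05. All 3 cytosolic genes whose groups did not overlap had an exact match to the 2-unit but not to the 3-unit form. In each of them the printed stretch differs from the 3-unit form only in its last base. DNAJB1 also had exact matches to the 2-unit form alone, but its fold change was -0.19 and its groups overlapped. The 4 with an exact 3-unit match had fold changes from -0.25 to 0.33. HSPA8, with 3-unit matches starting at -230 and -55 bases, had the lowest fold change of the cytosolic members, -0.25 (0.03 without control 1).

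**Figure D2:**
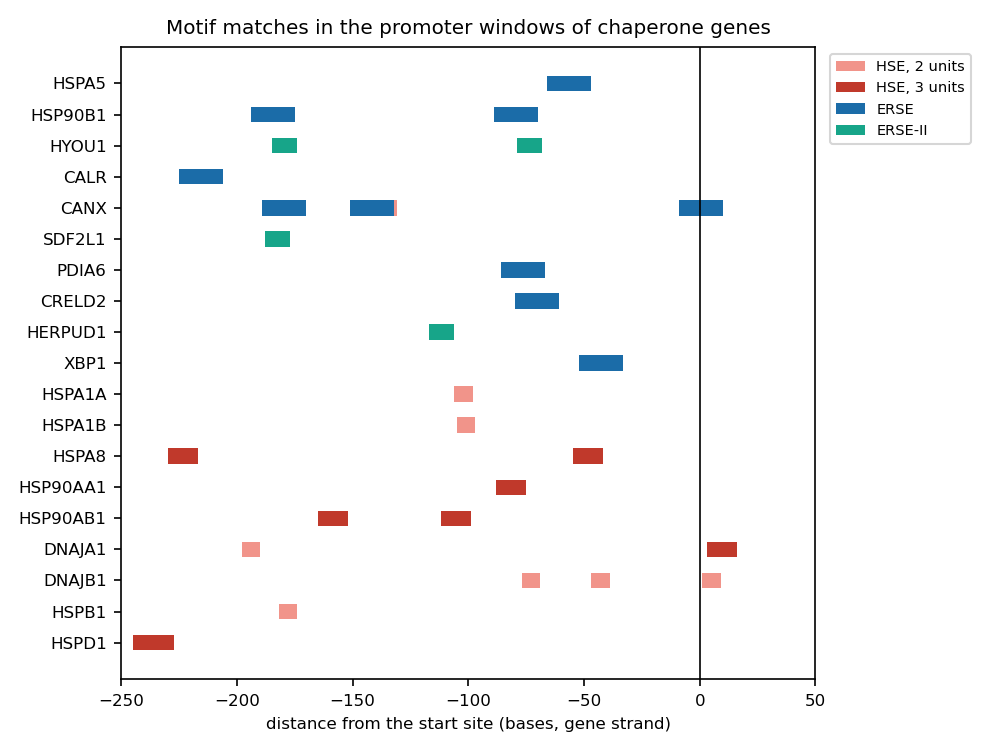
Positions of the motif matches (bars, coloured by motif) in the promoter windows of the members that hold a match, by distance from the start site in bases along the gene (x axis). Windows of alternative start sites of a gene are drawn in the same row. ERSE and ERSE-II matches lie in the ER genes and the 3-unit heat shock elements in cytosolic genes and HSPD1. CANX holds an ERSE and a 2-unit heat shock element, in windows of different start sites.

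HSPB1 (ENSG00000106211, chr7:76302673-76304295, GRCh38) had the largest fold change of the 37 listed members. Its level was 359, 273 and 422 CPM in the controls and 785, 864 and 889.9 CPM in the overexpression libraries. The lowest overexpression library lay 363 CPM above the highest control, and the spread within each group (SD 75.1 and 54.6 CPM, n = 3 each) was small beside that gap. The log2 fold change was 1.29, with a 95% interval from 0.81 to 1.76 (limma, adjusted p = 0.0424). The value stood close to the threshold: with any single library left out the fold change stayed between 1.12 and 1.43, but the adjusted p lay between 0.0666 and 0.163 and the gene was not called in any of the 6 fits. It was not called either with the replicate number as a block (adjusted p = 0.0579), nor with a pseudocount of 0.1 or 0.5 (adjusted p = 0.0619 and 0.0514).

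HSPA1A and HSPA1B encode the stress-inducible HSP70, the classic targets of the heat shock response, and lie next to each other on chromosome 6 (chr6:31815543-31817946 and chr6:31827738-31830254, both + strand). HSPA1A was at 159.6, 139 and 146 CPM in the controls and at 243, 227 and 249 CPM in the overexpression libraries. HSPA1B was at 42.2, 35.3 and 32.8 CPM and at 74.1, 68.4 and 64.4 CPM. For each gene every overexpression library lay above every control, and the SDs within groups were 4.86 to 11.1 CPM. The fold changes were 0.69 (standard error 0.17, limma adjusted p = 0.146) and 0.90 (standard error 0.18, limma adjusted p = 0.093), so neither passed. HSPA1A passed in 2 and HSPA1B in 3 of the other settings, which are given in the closing section.

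The proteins of this pair are nearly identical, and so are parts of their transcripts. In the last 500 bases of HSPA1A, 50 of 401 windows of 100 bases (12.5%) also occurred in HSPA1B, while 0 of 401 windows at the end of HSPA1B occurred in HSPA1A. Tags from the shared windows could come from either gene. With both genes summed as 1, the levels were 202, 175 and 179 CPM in the controls and 317, 296 and 313 CPM in the overexpression libraries, and the log2 fold change was 0.74 (limma adjusted p = 0.128).

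The HSP90 genes had the most tags of all members. HSP90AA1, the inducible cytosolic HSP90, was at 5103, 3403 and 5440.2 CPM in the controls and at 5804, 6379.7 and 5117 CPM in the overexpression libraries. HSP90AB1, the constitutive form, was at 4459, 2699.7 and 4070.2 CPM and at 3949, 4405 and 3574 CPM. In both genes control 2 was the lowest of the 6 libraries and the groups overlapped. The fold changes were 0.33 and 0.11, and without control 2 they were 0.12 and -0.10.

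The other cytosolic members overlapped between the groups as well. HSPA8, the constitutive HSP70, had a fold change of -0.25 (0.03 without control 1), and its highest library was control 1 at 369.8 CPM while the other 5 libraries lay between 198 and 224 CPM. Of the HSP110 exchange factors, HSPH1 had a fold change of 0.33 (0.16 without control 2) and HSPA4 of 0.05. Among the co-chaperones DNAJA1 (0.17, and 0.04 without control 2), DNAJB1 (-0.19, and -0.05 without control 3) and BAG3 (-0.03), which steer HSP70 to its clients, none had an unadjusted p under 0.05. HSF1, the transcription factor of the heat shock response, was at 97.2, 117 and 98.3 CPM in the controls and at 108, 95.5 and 90.0 CPM in the overexpression libraries (log2 fold change -0.09, 95% interval -0.50 to 0.33). HSF1 is mainly controlled at the protein, which was not measured.

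**Figure D3:**
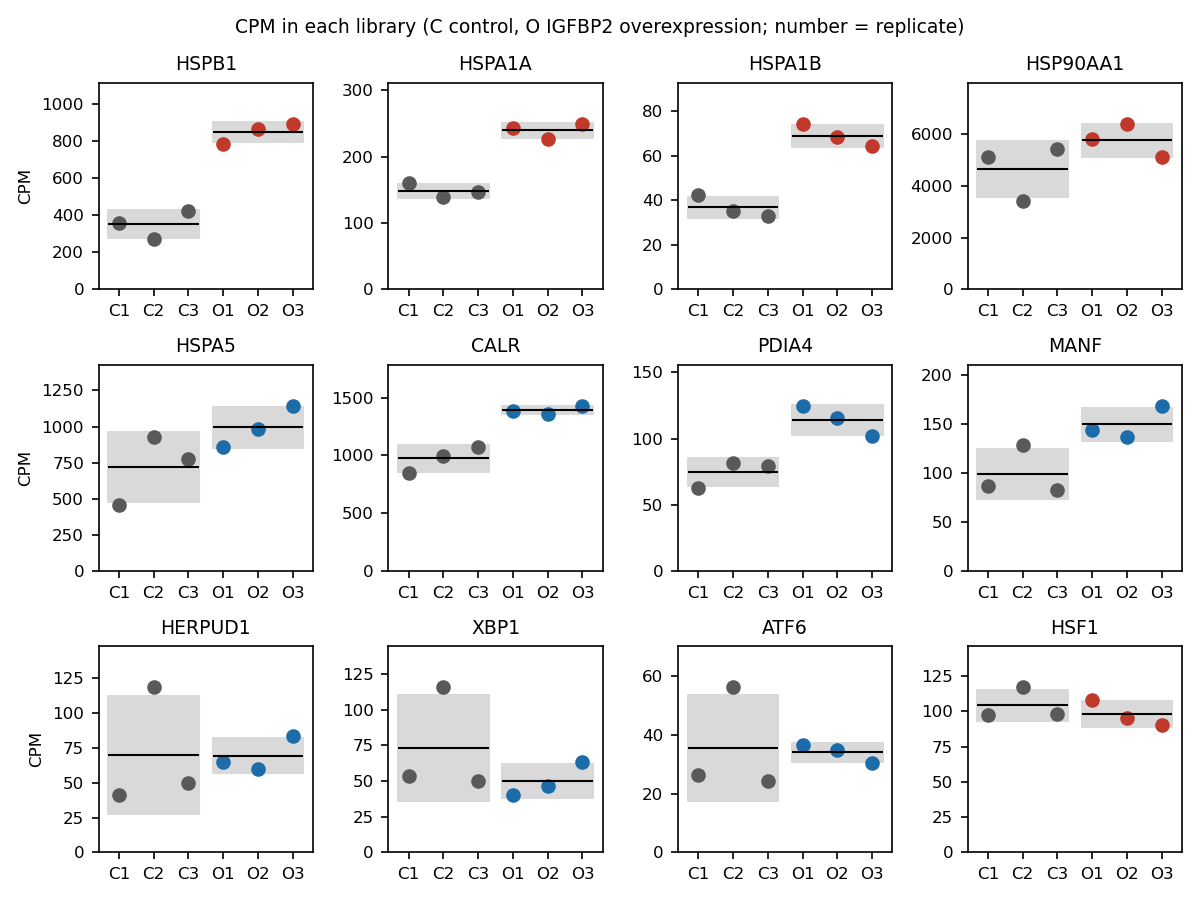
CPM (y axis, from 0) of 12 genes in each library (x axis, C1 to C3 control, O1 to O3 overexpression), with points for libraries, lines for group means and grey bands for 1 SD either side (n = 3). HSPB1, HSPA1A, HSPA1B, CALR, PDIA4 and MANF have 3 overexpression points above the 3 control points, while HERPUD1, XBP1 and ATF6 have 1 control point (C2) above all others.

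In the ER, the lumenal and membrane chaperones all had positive fold changes, with a median of 0.52. CALR, calreticulin, a calcium-binding lectin that retains misfolded glycoproteins, was the clearest. It was at 851, 994 and 1074 CPM in the controls and at 1382, 1359.5 and 1429 CPM in the overexpression libraries, and the groups were 286 CPM apart (log2 fold change 0.52, standard error 0.18, limma adjusted p = 0.277). Its membrane-bound relative CANX, calnexin, was at 877, 1155 and 961 CPM and at 1128, 1289.8 and 1246 CPM, and the groups overlapped only through control 2. HSPA5, the central HSP70 of the ER, was at 457, 928 and 775 CPM in the controls and at 859, 984 and 1144 CPM in the overexpression libraries.

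HSPA5 varied more among the controls (SD 241 CPM) than among the overexpression libraries (SD 143 CPM), and its fold change of 0.52 had a 95% interval from -0.11 to 1.14 (limma adjusted p = 0.471). It was 0.22 without control 1 and 0.73 without control 2. HYOU1, the exchange factor and relative of HSPA5, followed the same order of controls at 93.2, 208 and 139.5 CPM, against 165, 212 and 232 CPM (fold change 0.52, 0.23 without control 1 and 0.81 without control 2). HSP90B1, the ER form of HSP90, had a fold change of 0.32, and its lowest library was control 3, without which it was 0.13.

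The J-domain partners and stabilisers of HSPA5 were 4 genes with a median of 0.31. SDF2L1, a partner of DNAJB11 in the HSPA5 complex, was at 134, 203 and 202 CPM in the controls and at 205, 257 and 262 CPM in the overexpression libraries. Its groups were 2.00 CPM apart, less than any SD within a group (log2 fold change 0.44, limma adjusted p = 0.449), and without control 1 the fold change was 0.25. DNAJB11 itself had 0.36 (0.21 without control 1), DNAJC3, which also restrains PERK, 0.01, and DNAJB9, which restrains IRE1, 0.25. DNAJB9 had only 15 to 50 tags in a library. Its fold change was -0.15 without overexpression 1, 0.003 without control 3 and 0.50 without control 2.

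The protein disulfide isomerases included 3 of 4 genes with every overexpression library above every control (9.43% of all genes). PDIA4 was at 62.4, 81.8 and 79.3 CPM in the controls and at 125, 116 and 102 CPM in the overexpression libraries, and it had the largest fold change of the ER members (0.61, standard error 0.19, limma adjusted p = 0.236). PDIA3, which works on glycoproteins bound to CALR and CANX, was at 121, 131 and 135 CPM and at 168, 212 and 147 CPM (fold change 0.43). PDIA6 was at 553, 601 and 492.5 CPM and at 702, 647.5 and 692 CPM (fold change 0.31). P4HB, PDI itself and a subunit of collagen prolyl hydroxylase, stood apart from them with 0.03, and all of its libraries lay between 255 and 294 CPM.

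MANF and CRELD2 encode small proteins that are induced by ER stress and are partly secreted. MANF was at 86.8, 129 and 82.1 CPM in the controls and at 144, 137 and 169 CPM in the overexpression libraries, with 8.03 CPM between the groups (log2 fold change 0.61, standard error 0.22, limma adjusted p = 0.294). CRELD2 had a fold change of 0.13 and its groups overlapped.

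The ER-associated degradation genes, which return misfolded proteins to the cytosol, had a median of -0.03. SYVN1, the ubiquitin ligase of this pathway, had 0.40 (0.61 without control 2), its scaffold HERPUD1 0.13, its partner SEL1L -0.20 and the mannose-trimming lectin EDEM1 -0.21, with 11 to 24 tags of EDEM1 in a library. HERPUD1 was at 118 CPM in control 2 and between 41.3 and 83.4 CPM in the other 5 libraries, and its fold change was -0.16 without control 1 and 0.59 without control 2.

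Of the 3 sensors and factors that were listed, 1 had a positive and 2 had negative fold changes, and none had an unadjusted p under 0.05. XBP1, the factor whose RNA is spliced by IRE1, was at 53.7, 116 and 50.1 CPM in the controls and at 40.2, 46.8 and 63.4 CPM in the overexpression libraries (log2 fold change -0.46, 95% interval -1.20 to 0.29, limma adjusted p = 0.617). ATF6 was at 26.2, 56.2 and 24.3 CPM and at 36.6, 34.9 and 30.6 CPM (fold change 0.04), and EIF2AK3, the gene of PERK, was at 8.88, 10.3 and 6.07 CPM and at 10.9, 6.46 and 6.57 CPM (fold change -0.08). Control 2 was the highest library for XBP1 and ATF6. Without it the fold change was -0.07 for XBP1 and 0.41 for ATF6. Tags from 3′ ends do not tell spliced from unspliced XBP1 RNA, so the splicing step of the response was not measured.

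The mitochondrial chaperones carry imported proteins into the matrix and fold them. HSPA9 (mortalin) and HSPD1 (HSP60) had fold changes of -0.05 and -0.02, and HSPE1 (HSP10), the lid of HSP60, had 0.33. HSPE1 was at 452, 236 and 309.7 CPM in the controls and at 476, 352 and 395 CPM in the overexpression libraries, and its fold change was 0.58 without control 1 and 0.11 without control 2. The annotation (GENCODE 44) names 26 pseudogenes after HSPE1, 18 after HSPD1 and 17 after HSPA8, none of which is listed in the table, so the placement of tags between these genes and their copies is uncertain.

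The levels of the members were also summed in each library. The ER sum was 4467, 5921 and 5029 CPM in the controls and 6335, 6681 and 6717 CPM in the overexpression libraries, so the lowest overexpression library stood above the highest control. The means were 5139 ± 733 and 6578 ± 211 CPM (SD, n = 3 each), a ratio of 1.28. Abundant genes weigh most in this sum, above all CALR, CANX and HSPA5, and it was not computed without them. The summed cytosolic level was 11628, 7658 and 11437 CPM in the controls and 12173, 13229 and 11219 CPM in the overexpression libraries, and these groups overlapped. The HSP90 pair alone made up 9562, 6103 and 9510 CPM of it in the controls and 9753, 10784 and 8692 CPM in the overexpression libraries. The other 10 cytosolic genes together were at 2066, 1555 and 1926 CPM and at 2419.7, 2444 and 2527 CPM, which did not overlap and gave a ratio of 1.33. HSPB1 accounted for this separation, since the remaining 9 genes without it were at 1707, 1282 and 1504 CPM and at 1634.5, 1580.0 and 1637 CPM, which overlapped (ratio 1.08). The mitochondrial sum was 1195, 831 and 851 CPM and 1135, 999 and 923 CPM.

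**Figure D4:**
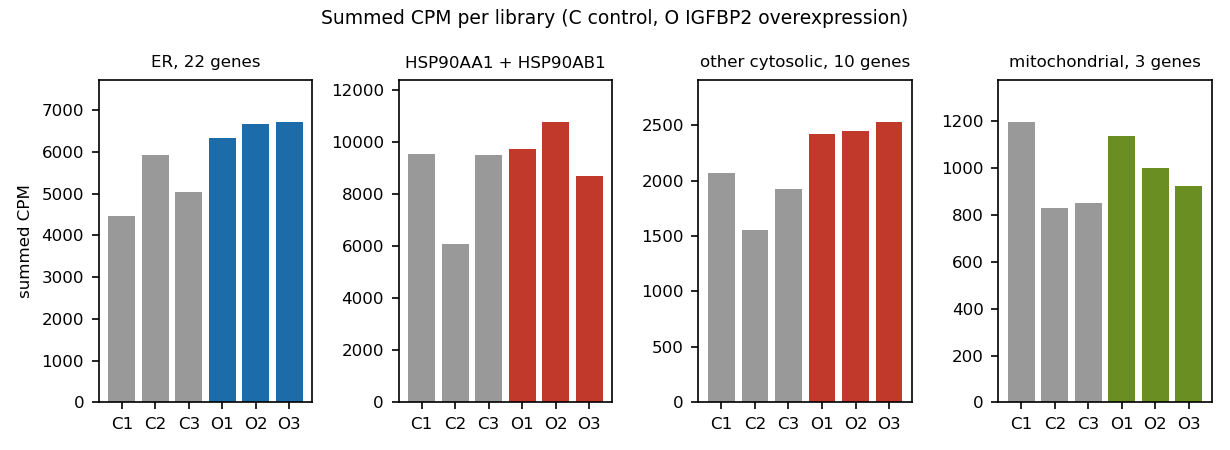
Summed CPM (bars from 0, y axis) of the ER genes, the HSP90 pair, the other cytosolic genes and the mitochondrial genes in each library (x axis, C1 to C3 control in grey, O1 to O3 overexpression in colour). The overexpression bars of the ER genes (6335 to 6717 CPM) and of the other cytosolic genes (2419.7 to 2527 CPM) stand above all control bars (the latter through HSPB1, without which the groups overlap), while those of the HSP90 pair and the mitochondrial genes overlap with them.

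The controls differed in the balance between the compartments. Control 1 was the lowest of all 6 libraries in 14 of the 22 ER members, against 18.1% of all genes. It was above both other controls in 8 of 12 cytosolic members, with a median difference of 0.265 on the log2 scale, and below both in 1. The same held for 2 of 3 mitochondrial members, with none below both. Over all genes control 1 was above both others in 3316 genes and below both in 3641. Control 2 was above both other controls in 17 of 22 ER members and below both in 0, with a median difference of 0.45 from their mean on the log2 scale, and below both in 9 of 12 cytosolic members, with a median difference of -0.40. Over all genes control 2 was above both others in 3736 genes and below both in 3397, and the median difference was 0.02. The ER genes with the largest excess in control 2 were HERPUD1 (1.37), XBP1 (1.14) and ATF6 (1.13), and the cytosolic genes with the largest deficit were HSP90AB1 (-0.66) and HSP90AA1 (-0.63). No label marks a batch, day or passage that separates the controls, and the source of this spread was not tested.

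**Figure D5:**
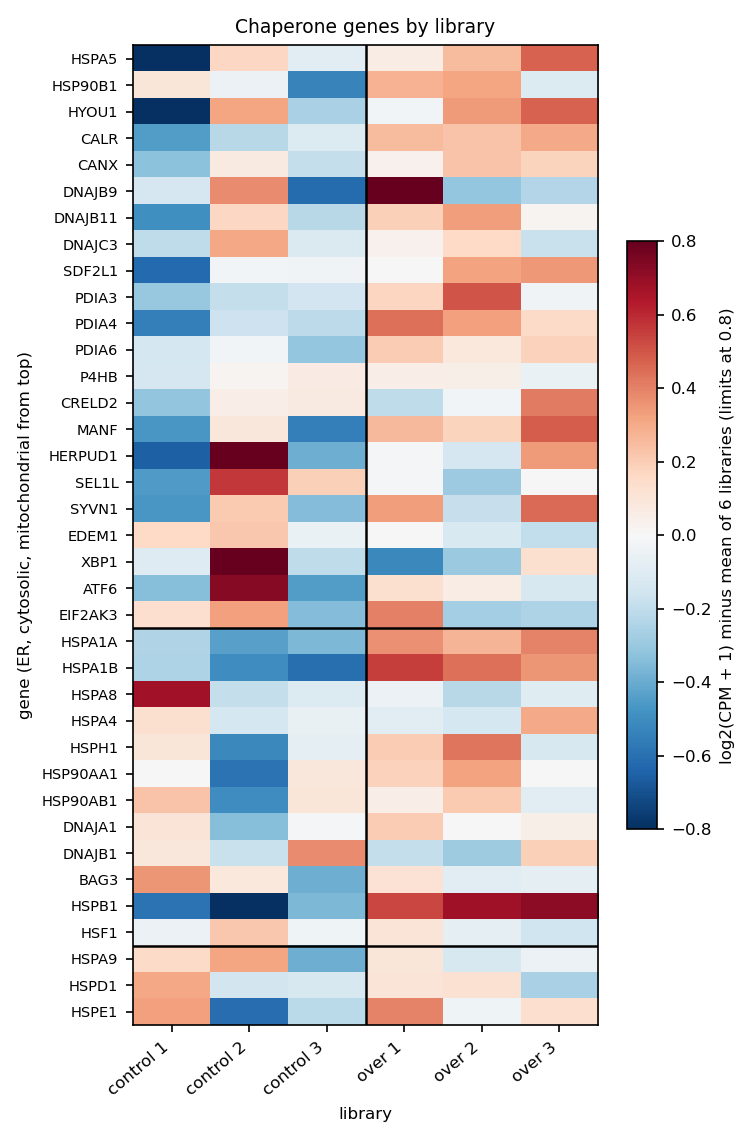
Difference of each library (columns) from the mean of all 6 on the log2(CPM + 1) scale (colour, limited at 0.8) for the 37 genes (rows, ER, cytosolic and mitochondrial from the top, separated by lines). Control 1 is mostly below the mean in the ER rows, control 2 is mostly above it in the ER rows and below it in the cytosolic rows, and the overexpression columns are more even, except DNAJB9 in overexpression 1.

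The overexpression libraries were closer to each other than the controls were. The SD within the control group was larger than that within the overexpression group in 18 of 22 ER members and in 14 of 15 cytosolic and mitochondrial members, against 6399 of all 10487 genes. The median SD on the log2 scale was 0.34 in the controls and 0.18 in the overexpression libraries for ER members, and 0.27 and 0.22 for all genes.

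The counts depended on these control libraries. Without control 2, the median fold change of the ER members was 0.43, the sum ratio 1.39, and 13 of 22 ER members had every overexpression library above both remaining controls (15.3% of all genes in that comparison), HSPA5, HYOU1, CANX and ATF6 among them. The cytosolic median was then 0.025 and its sum ratio 1.06, and HSPA1A, HSPA1B and HSPB1 were the 3 of 12 genes above. Without control 1, the median of the ER members was 0.22, 13 of 22 were positive and 6 of 22 (CALR, SDF2L1, PDIA3, PDIA4, PDIA6 and MANF) lay above both remaining controls, where 15.4% of all genes did. The cytosolic median was then 0.26, the sum ratio 1.28, and 4 of 12 genes lay above, DNAJA1 in addition. A gene whose groups do not overlap over 6 libraries cannot overlap once a library is removed, so such counts can only grow.

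The wider folding machinery was read from lists of further genes taken by function. Of 52 further ER folding genes 49 were listed and 0 passed at an adjusted p under 0.05. At an unadjusted p under 0.05, 3 of the 49 were higher (6.88% of all genes) and 1 was lower (6.12% of all genes), and the median fold change was 0.08. The smallest p belonged to ERO1A, the oxidase that recharges the disulfide isomerases, at 12.0, 17.2 and 12.5 CPM in the controls and 48.7, 42.3 and 23.3 CPM in the overexpression libraries (log2 fold change 1.34, limma adjusted p = 0.09996). MAN1B1, a mannosidase of glycoprotein degradation, had -0.59, and SERPINH1, the collagen chaperone HSP47, had 0.48.

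Of 50 further cytosolic chaperone genes 48 were listed and 0 passed. At an unadjusted p under 0.05, 3 of the 48 were higher (6.88% of all genes) and 2 were lower (6.12% of all genes), and the median was 0.06. CRYAB, a small heat shock protein and relative of HSPB1, was at 3.77, 16.4 and 27.1 CPM in the controls and at 1.56, 0.323 and 1.64 CPM in the overexpression libraries, the opposite side from HSPB1 (log2 fold change -2.68, limma adjusted p = 0.1004). BAG2, a co-chaperone of HSP70, had 0.92 (limma adjusted p = 0.108), and FKBP5, a co-chaperone of HSP90 that is best known as a glucocorticoid target, had -1.02 (limma adjusted p = 0.132). Of 11 further mitochondrial chaperones and proteases 10 were listed, 0 passed and 0 had an unadjusted p under 0.05, with a median of -0.05. CLPX (0.31), GRPEL1 (0.27) and CLPB (-0.35) had the smallest p-values.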

How the data were processed

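The authors prepared the files, per the study's methods, by trimming with bbduk, alignment to hg38 with STAR, counting per gene with htseq-count (HTSeq 0.9.1 per the labels) and normalization with edgeR. Genes at a mean CPM of 5 or less in both conditions had been removed by the authors, so a gene under that level is missing, and the values were deposited as log2(CPM + 1). The deposited log2 values of all 10487 genes were tested with limma (version 3.58.1, R 4.3.3) in a model holding only the condition, with no variance trend. Two-sided p-values were adjusted over all genes (Benjamini-Hochberg, threshold 0.05). Log2 fold changes of low genes are understated by the pseudocount of 1. CPM was taken back from the log2 values. Whole reads were recovered in 100% of values (tolerance 0.001 reads) for the depths, limma voom and other scalings. The fits were also run on simulated counts with the same spread setting for every gene and larger changes than most members had. That run does not measure how well the fits find changes of the size seen in the members.

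The labels call the samples replicates and the methods call them biological replicates. What separates them (culture, passage or day) is not given in the sources used here, so p-values measure the spread between these samples. Replicate numbers were not used as pairs in the reported fit, since the sources do not say that they mark a shared day or batch. Symbols and positions came from GENCODE 44, which matched 10462 identifiers. Members and lists were chosen with earlier results of these data known, and a fold change of a list is described by counts and medians only. Values in every library are given for members whose unadjusted or adjusted p is under 0.05 or whose groups do not overlap, for the 3 with most reads in the ER and in the other compartments, for HSPA1A, HSPA1B, the sensors and HSF1, and for the targeted gene. HYOU1, HSPE1 and the summed levels (also without HSPB1) were added after their values were seen. Of each further list, the 3 genes with the smallest p are named. Alternatives changed the library scaling, the low-value filter, the pseudocount or the variance model, blocked on the replicate number, or left out a library. Counts of members by direction and by non-overlap without each library were added after seeing the data.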

Additional observations from a re-analysis of the deposited data

How the results depend on the processing

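The 66 genes called over the whole table became 160 with a mean-variance trend, 141 with limma voom, 129 with a pseudocount of 5, 37 with a pseudocount of 0.1, and 12 to 79 with one library left out (12, 13 and 17 without overexpression 1, overexpression 2 and control 3). The ER members called were 0 in every setting run. Called cytosolic and mitochondrial members were 1 (HSPB1) in the fit reported, 3 with the trend and with limma voom (HSPA1A, HSPA1B and HSPB1), 2 with a pseudocount of 5 (HSPA1B and HSPB1), 0 with a pseudocount of 0.1 or 0.5, and 0 to 0 with one library left out. With the replicate number as a block they were 0, and 55 genes were called over the whole table, 42 of them shared. The deviations of same-numbered samples correlated at 0.17, -0.06 and 0.08. With no value for differently numbered samples beside them, these cannot show whether a number marks a shared day or batch. The adjusted p of HSPA1A lay between 0.0300 and 0.402 and that of HSPA1B between 0.0218 and 0.325 over the alternatives, and that of HSPB1, which passed in 8 of 17, between 0.000875 and 0.163. IGFBP2 passed in all 17.

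Of 406 combinations of a member and a setting with all libraries in (among them HSPA1A with HSPA1B added to it), 397 kept direction and side of the threshold and 1 changed sign, HSPD1 (0.0035 with upper quartile scaling). With one library left out, signs changed for DNAJB9 (-0.15 to 0.50), DNAJC3 (-0.091 to 0.16), P4HB (-0.027 to 0.075), CRELD2 (-0.051 to 0.26), HERPUD1 (-0.16 to 0.59), SEL1L (-0.48 to 0.034), ATF6 (-0.18 to 0.41), EIF2AK3 (-0.30 to 0.069), HSPA8 (-0.40 to 0.029), HSPA4 (-0.092 to 0.13), HSP90AB1 (-0.10 to 0.26), BAG3 (-0.23 to 0.14), HSPA9 (-0.26 to 0.095) and HSPD1 (-0.10 to 0.13). The medians lay between 0.22 and 0.43 for ER members and between 0.04 and 0.26 for cytosolic and mitochondrial members. The cause of these changes was not tested. The planned tests of recovered reads with edgeR and DESeq2 were not run, and limma voom was the test run on those reads. At 11 to 24 tags, EDEM1 is the member with the least depth.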
